A study of Rattus norvegicus with 6 samples.

Results

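The genes described here encode 10 enzymes that remove reactive aldehydes, carbonyls, quinones and epoxides: the aldo-keto reductases Akr1b8, Akr1b1 and Akr1a1, the quinone reductase Nqo1, the carbonyl reductase Cbr1, the aldehyde dehydrogenases Aldh2, Aldh3a2, Aldh7a1 and Aldh9a1, and the microsomal epoxide hydrolase Ephx1. They were chosen by symbol, and all 10 were found among the 37209 gene symbols of the deposited table of read counts. RNA was sequenced from primary rat bone marrow mesenchymal stem cells (BMSCs), stromal progenitors of the femur with a wild-type genotype. In the first group, 3 libraries came from cells given 3% cigarette smoke extract (CSE), an aqueous extract of smoke, for 6 h, and in the second, 3 control libraries came from cells kept in serum-free medium for the same time. Strain, age and sex of the animals, and the medium used to dilute the extract, are absent from the labels. The labels are also silent on whether each library had its own culture or animal, so the p-values cover just the spread among these libraries, and that spread may be technical.

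Cigarette smoke carries aldehydes such as acrolein and acetaldehyde, together with quinones and epoxides that react with proteins and DNA. Aldo-keto reductases and carbonyl reductases use NADPH to turn aldehydes and ketones into alcohols, whereas aldehyde dehydrogenases oxidise aldehydes to acids with NAD or NADP. NQO1 reduces quinones to hydroquinones without passing through the reactive semiquinone, and microsomal epoxide hydrolase adds water to epoxides. Several of these genes are known to be activated by NRF2, an oxidant-responsive factor that binds antioxidant response elements, and Nqo1 is also a known target of the aryl hydrocarbon receptor, which binds xenobiotic response elements.

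Promoter windows are shown for 3 of the genes: Akr1b8 and Nqo1, which changed strongly together with CSE, and Ephx1, which did not pass the test. Each holds the 250 bases before the annotated start of the gene in RefSeq, build GRCr8, on the gene's own strand from 5′ to 3′. Capitals mark matches, on either strand, to the antioxidant response core TGACNNNGC, the xenobiotic response core GCGTG or the AP-1 site TGAGTCA.
Akr1b8, chr4:63964171-63964420, plus strand: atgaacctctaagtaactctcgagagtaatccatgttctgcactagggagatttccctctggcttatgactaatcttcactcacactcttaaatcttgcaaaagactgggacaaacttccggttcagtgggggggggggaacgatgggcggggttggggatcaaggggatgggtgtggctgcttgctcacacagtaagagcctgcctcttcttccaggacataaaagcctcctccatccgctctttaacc
Nqo1, chr19:52220268-52220517, minus strand: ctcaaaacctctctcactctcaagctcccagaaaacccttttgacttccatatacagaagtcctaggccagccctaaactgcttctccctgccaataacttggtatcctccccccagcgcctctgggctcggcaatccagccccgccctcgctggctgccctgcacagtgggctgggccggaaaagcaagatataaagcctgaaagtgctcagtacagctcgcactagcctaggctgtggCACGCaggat
Ephx1, chr13:95263118-95263367, minus strand: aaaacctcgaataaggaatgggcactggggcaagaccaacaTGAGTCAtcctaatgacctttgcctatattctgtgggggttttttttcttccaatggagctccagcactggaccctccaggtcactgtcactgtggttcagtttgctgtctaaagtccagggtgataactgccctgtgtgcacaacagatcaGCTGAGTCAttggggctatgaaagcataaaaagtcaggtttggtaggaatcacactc

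The Akr1b8 window held no match to these letters, and the Nqo1 window held 1, a GCGTG core read on the other strand at position -10 from the start. RefSeq lists 2 windows for Ephx1. The one shown holds TGACNNNGC on the other strand at position -57, overlapped by a TGAGTCA site at -55, and a further TGAGTCA at -209. The window with matches was the one shown, and the other Ephx1 window held no match to these letters. The matches shown for Ephx1, and their contrast with the Akr1b8 window, thus depend on the choice of window. Windows of 300 bases, from 250 before to 50 after the start, were searched for 8 of the 10 genes, which had 9 windows in all. Akr1b1, Akr1a1 and Aldh2 are in no list of matches below, but not all of them had a window to search. TGACNNNGC was found in 2 of the 9 windows (Ephx1 and Aldh9a1), against 12.1% of all 33469 windows in the table. GCGTG was found in 5 of the 9 windows (Nqo1, Cbr1, Aldh3a2, Aldh7a1 and Aldh9a1), against 29.7% of all windows. TGAGTCA was found in 1 of the 9, that of Ephx1 shown above, against 4.63%. These matches describe letters only, and elements farther from the start lie outside the windows.

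Library totals ranged from 19433637 to 22589327 counts with CSE and from 15958621 to 18651194 in the control, and 3 counts, taken as the limit for a gene with a count of 0, were worth 0.142 to 0.177 CPM (counts per 1000000 of a library size scaled by TMM). Such limits cover counting error only. All 11 stromal markers had counts, with summed levels, most of them from Col1a1, of 31350 to 32640 CPM with CSE and 32320 to 35520 CPM in the control. Of these 11, 3 rose, 6 fell and 2 did not pass, from Cxcl12 at a log2 fold change of -2.17 to Cd44 at 1.09. The 14 macrophage markers were also all detected. Their summed levels, most of them from Lyz2, were 1829 to 1895 CPM with CSE and 1653 to 1702 CPM in the control. Lyz2 alone had 1441, 1398 and 1399 CPM with CSE, against 1194, 1155 and 1174 CPM in the control, so these sums mostly follow that gene. Of the 14, 3 rose, 3 fell and 8 did not pass, from Cd14 at a log2 fold change of -1.45 to Tyrobp at 0.28. Endothelial markers, of which 1 of 6 was at 0 in every library, summed to 6.87 to 8.37 CPM with CSE and 11 to 11.8 CPM in the control, and of the 2 tested Tek fell and Tie1 did not pass. In every library 2 of 6 neutrophil and 3 of 5 erythroid markers were at 0, and neither list summed to more than 0.664 CPM. The part of these markers in the results was not tested. In bulk RNA, fewer cells of a type and less RNA per cell cannot be told apart.

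With CSE, 8 of the 10 enzyme genes were higher, Ephx1 did not pass the test and Cbr1 had too few counts to be tested. Akr1b8, Akr1b1 and Nqo1 rose more than 5-fold, while Akr1a1 and the 4 aldehyde dehydrogenases rose by less than 2-fold. Of all 13390 genes tested, 73.9% passed the threshold of 0.05 for the adjusted p of edgeR's quasi-likelihood test. Of the same 13390, 36.3% were higher, 37.5% were lower and 10.7% were at least 2-fold higher. The 9 tested enzyme genes had a median log2 fold change of 0.67, against -0.02 over all tested genes, and in each of the 9 every CSE library lay on 1 side of every control library, as in 75.8% of all tested genes. Together the 10 genes took 0.881% to 0.938% of all counts in the CSE libraries and 0.193% to 0.198% in the control libraries. Without Akr1b8 and Nqo1 the share was 0.212% to 0.228% with CSE and 0.104% to 0.111% in the control. That remainder still holds Akr1b1, which also rose more than 5-fold. Akr1b1 had 23588, 19617 and 19595 counts with CSE, against 2808, 2997 and 3340 counts in the control. The difference in the remainder is therefore not spread evenly over its genes.

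**Figure D1:**
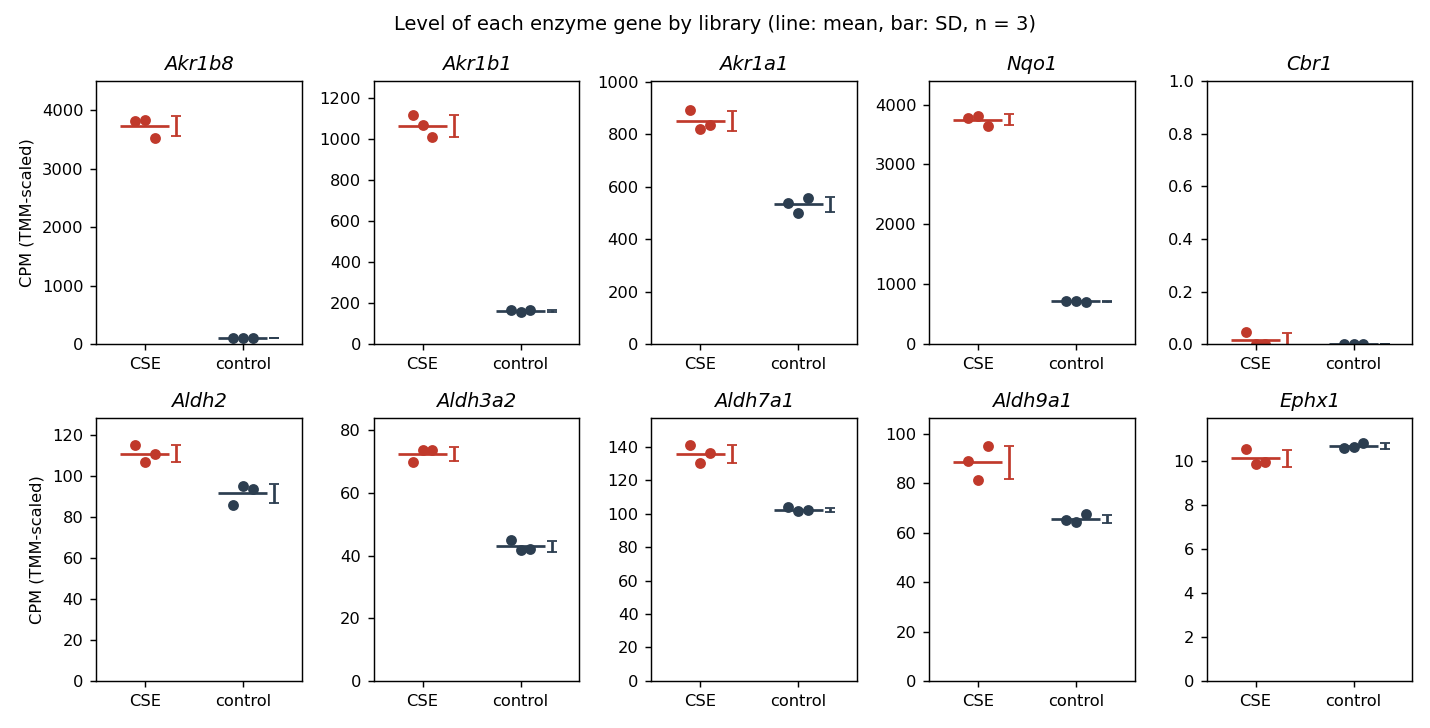
Level of each of the 10 enzyme genes in every library, in CPM on axes that start at 0, with CSE left of control; points are libraries, lines are means and bars are SD (n = 3). Akr1b8, at 3527 to 3832 CPM with CSE and 99.4 to 110 CPM in the control, shows the widest gap, Ephx1 is close to level and Cbr1 lies at or near 0.

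Akr1b8, a rodent aldo-keto reductase that reduces aliphatic and aromatic aldehydes, had 3816, 3832 and 3527 CPM in the CSE libraries, against 106, 99.4 and 110 CPM in the control libraries. All CSE libraries stood far above all control libraries. The difference was 35.4-fold, with a log2 fold change of 5.15 ± 0.06 (SE, edgeR adjusted p = 2.5e-20), and ranked 61st from the top of the 13390 tested genes. Akr1b1, which encodes aldose reductase, the enzyme that turns glucose into sorbitol and also reduces lipid-derived aldehydes, had 1118, 1069 and 1012 CPM with CSE, against 165, 158 and 168 CPM in the control. The groups did not overlap, and the log2 fold change was 2.70 ± 0.05 (6.51-fold, edgeR adjusted p = 1.7e-17, rank 275). Akr1a1 encodes aldehyde reductase, which in rodents also serves ascorbate synthesis. It had 892, 820 and 837 CPM with CSE, against 540, 502 and 559 CPM in the control, so its lowest CSE library was still above its highest control library. Its log2 fold change was 0.67 ± 0.05 (1.59-fold, edgeR adjusted p = 1.4e-09).

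In RefSeq's gene table of GRCr8, Akr1b1, Akr1b8 and Akr1b10 follow each other as neighbouring coding genes. The first 2 of these differed in how far they rose. The count ratio of Akr1b8 to Akr1b1 within a library, which no library scaling can change, was 3.41, 3.59 and 3.49 with CSE, against 0.641, 0.630 and 0.653 in the control, so that the order of their counts turned round. On the log2 scale the mean ratio was 1.80 ± 0.04 in CSE libraries and -0.64 ± 0.03 in control libraries (SD, n = 3, exact 2-sided permutation p = 0.1, the smallest that 3 libraries against 3 allow). Akr1b10 had 10, 14 and 13 counts with CSE and none in any control library. With 3 counts assumed for the control libraries together as a floor, it was 11.7-fold higher with CSE. This value allows for no counting error in the CSE libraries, so it is not a strict lower limit. Akr1b10 had too few counts to enter the test. Akr1b7, a further gene of the subfamily, had 1 count in 1 CSE library and none elsewhere. Akr1b8-ps4, a pseudogene in RefSeq, had 3 to 6 counts per CSE library and at most 1 per control library. The pseudogene Akr1b1-ps1 had 1 count in 1 CSE library and none elsewhere. Akr1b1-ps3, Akr1b1-ps5 and Akr1b8-ps3 had none in any library. Akr1b1-ps2, a further pseudogene row chosen after its values were seen, had 934, 736 and 735 counts with CSE, against 90, 134 and 155 counts in the control, a 6.02-fold difference (log2 fold change 2.59 ± 0.11, edgeR adjusted p = 6.7e-13) beside the 6.51-fold of Akr1b1. The sources used here do not state how reads matching several Akr1b genes were treated, and the levels of these genes are uncertain to that extent.

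Nqo1 had 3784, 3814 and 3647 CPM with CSE, against 723, 721 and 711 CPM in the control. The libraries of each group lay close together, and no CSE library came near a control library. The log2 fold change was 2.38 ± 0.04 (5.22-fold, edgeR adjusted p = 6.6e-18), which ranked 375 from the top. Its relative Nqo2 encodes a quinone reductase that uses dihydronicotinamide riboside in place of NADPH, and it went the other way. Nqo2 had 3.08, 2.45 and 2.22 CPM with CSE, against 7.18, 5.11 and 5.50 CPM in the control. Its log2 fold change was -1.18 ± 0.19, at an edgeR adjusted p of 2.6e-05. Every CSE library was below every control library. The log2 count ratio of Nqo1 to Nqo2 had a mean of 10.50 ± 0.22 in CSE libraries and 6.93 ± 0.25 in control libraries (SD, n = 3, exact 2-sided permutation p = 0.1, the smallest possible). For this ratio 0.5 count was added to both genes.

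**Figure D2:**
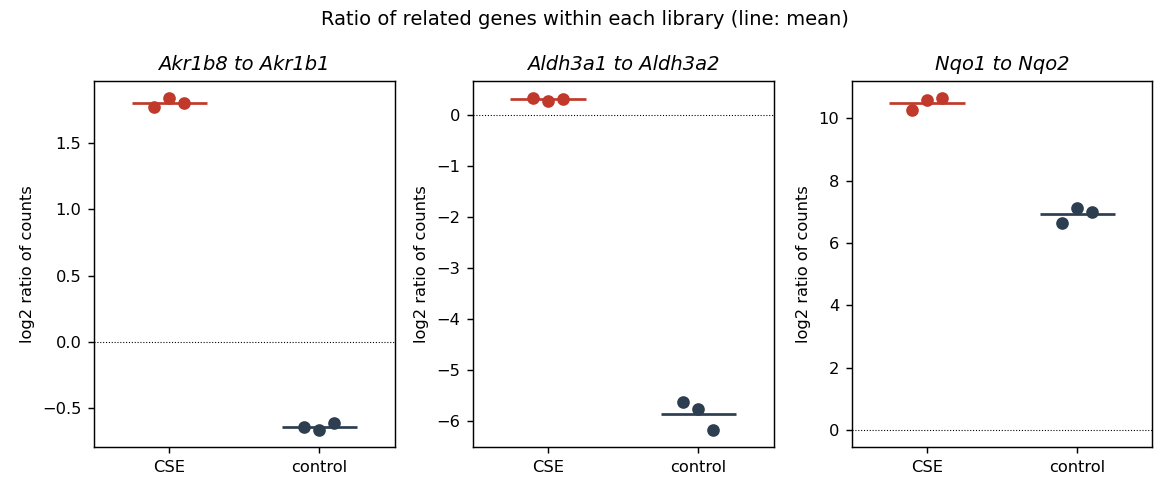
Log2 ratio of the read counts of 2 related genes within each library, with CSE left of control; points are libraries, lines are group means and the dotted line marks equal counts. Except for Akr1b8 to Akr1b1, 0.5 count was added to both genes. The Akr1b8 to Akr1b1 and Aldh3a1 to Aldh3a2 ratios lie above 0 with CSE and below 0 in the control, and all 3 ratios are higher with CSE than in the control.

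Cbr1 encodes carbonyl reductase, a cytosolic enzyme that reduces quinones, prostaglandins and lipid-derived carbonyls. It had 1 count in 1 CSE library and none in the other CSE libraries or in any control library, so its level was below the limit set by 3 counts and no fold is given. RefSeq names 2 other rows of the table, LOC102556347 and LOC100360601, as the Cbr1-like genes Cbr1l2 and Cbr1l3, and these rows were chosen after their values were seen. LOC102556347 had 8.06, 5.99 and 6.92 CPM with CSE, against 4.82, 2.11 and 4.44 CPM in the control, and was called higher (0.89 ± 0.22 on the log2 scale, edgeR adjusted p = 0.0015). LOC100360601 had 0.569, 0.708 and 0.671 CPM with CSE, against 0.235, 0.527 and 0.807 CPM in the control, where the groups overlapped, and it did not pass (0.28 ± 0.44 on the log2 scale, edgeR adjusted p = 0.583). With the 3 rows summed before the fit, the level was 7.66 ± 0.99 CPM with CSE and 4.31 ± 1.46 CPM in the control (SD, n = 3), and the log2 fold change was 0.83 ± 0.20 (edgeR adjusted p = 0.0012). Whether reads of Cbr1 were counted on these rows was not tested. Cbr3, a related carbonyl reductase, had 22.8, 22.4 and 19.6 CPM with CSE, against 10.5, 11.4 and 12.0 CPM in the control, and rose 1.91-fold (log2 fold change 0.93 ± 0.09, edgeR adjusted p = 1.0e-07). The log2 ratio of Cbr3 to Cbr1 differed by 0.48 between CSE and control (exact 2-sided permutation p = 0.4), but with Cbr1 at 0 or 1 count this ratio rests on the 0.5 count added to both genes.

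The 4 aldehyde dehydrogenase genes rose by log2 fold changes between 0.28 and 0.75, and in each of them the groups did not overlap. Aldh2, the mitochondrial enzyme that clears acetaldehyde, had 116, 107 and 111 CPM with CSE, against 86.2, 95.2 and 93.6 CPM in the control. Its lowest CSE library was 107 CPM and its highest control library 95.2 CPM, the narrowest gap of the 4 relative to its level. The log2 fold change was 0.28 ± 0.05 (1.21-fold, edgeR adjusted p = 1.8e-04), but 0.09 with an adjusted p of 0.148 when libraries were scaled by total counts alone, where the median of all genes was -0.20. Aldh3a2 encodes the fatty aldehyde dehydrogenase of the endoplasmic reticulum, which oxidises long-chain aldehydes. It had 69.8, 73.9 and 73.6 CPM with CSE, against 45.0, 41.9 and 42.2 CPM in the control, with all CSE libraries well above the control libraries. Its log2 fold change of 0.75 ± 0.06 (1.69-fold, edgeR adjusted p = 2.0e-09) was the highest of the 4.

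Aldh7a1, whose product acts in lysine breakdown and oxidises betaine aldehyde and lipid-derived aldehydes, had 141, 130 and 136 CPM with CSE, against 104, 101 and 102 CPM in the control. The control libraries were nearly level with each other and all lay below the CSE libraries. The log2 fold change was 0.41 ± 0.05 (1.33-fold, edgeR adjusted p = 8.7e-07). Aldh9a1, whose product acts in carnitine synthesis, had 89.1, 81.3 and 95.0 CPM with CSE, against 65.3, 64.4 and 67.4 CPM in the control. The CSE libraries were more spread than the control libraries, at 88.5 ± 6.86 CPM with CSE and 65.7 ± 1.56 CPM in the control (SD, n = 3), and the log2 fold change was 0.43 ± 0.06 (1.35-fold, edgeR adjusted p = 5.0e-06).

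Ephx1 had 10.57, 9.86 and 9.97 CPM with CSE, against 10.59, 10.64 and 10.84 CPM in the control. Every CSE library was marginally below every control library, and the gene did not pass, with a log2 fold change of -0.08 ± 0.10 at an edgeR adjusted p of 0.517. Under total counts alone it was -0.26 with an adjusted p of 0.0289. Its relative Ephx2, the soluble epoxide hydrolase of lipid epoxides, had 1.99, 3.16 and 3.05 CPM with CSE, against 3.41, 3.32 and 2.47 CPM in the control. Here the groups overlapped, and the gene did not pass, with a log2 fold change of -0.17 ± 0.23 at an edgeR adjusted p of 0.517. Without the first CSE library the value for Ephx2 was 0.027.

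**Figure D3:**
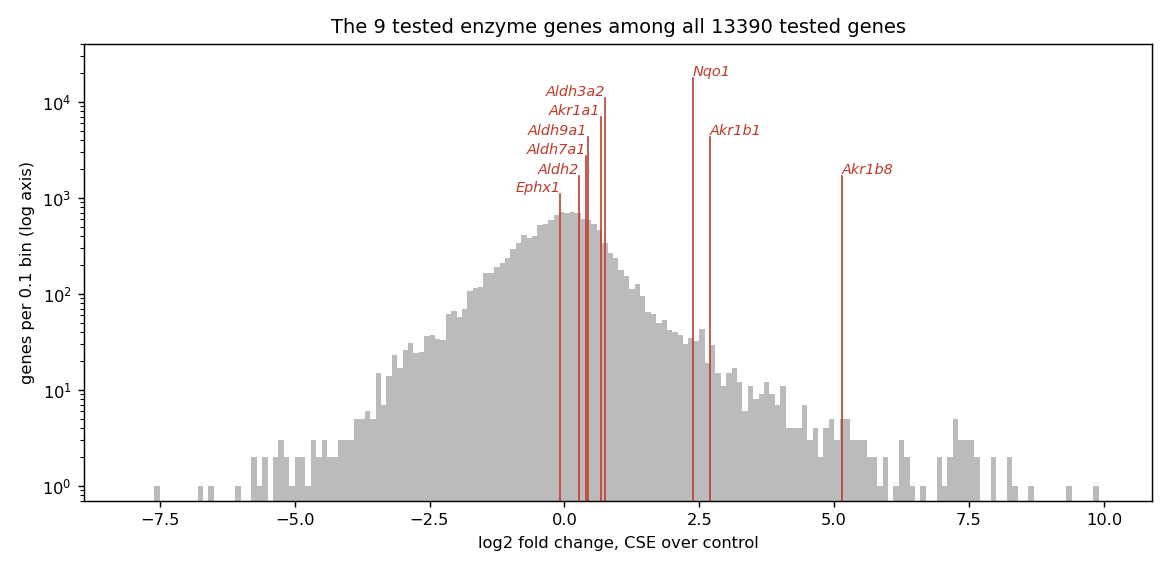
Log2 fold change of CSE over control for all 13390 tested genes, as a histogram with a log count axis, with red lines at the 9 tested enzyme genes. Akr1b8 at 5.15 lies in the sparse right tail, Akr1b1 at 2.70 and Nqo1 at 2.38 on the right slope, and the other 6 between -0.08 and 0.75 near the centre.

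Other enzymes of aldehyde, carbonyl, quinone and epoxide metabolism were taken from a list of 56 genes chosen for function, of which 55 were in the table and 37 had enough counts to be tested. Of these 37, 13 rose, 20 fell and 4 did not pass. Their median log2 fold change was -0.21, against -0.02 over all tested genes, of which 36.3% rose and 37.5% fell. Under total counts alone 12 rose and 21 fell, while of all 13390 tested genes 3749 rose and 6319 fell. Among 10 further aldehyde dehydrogenases, 2 rose and 7 fell while 1 did not pass, and of 6 further aldo-keto reductases 2 rose, 3 fell and 1 did not pass.

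Aldh3a1, a cytosolic aldehyde dehydrogenase that oxidises aromatic and medium-chain aldehydes and is a known target of the aryl hydrocarbon receptor, is the coding neighbour of Aldh3a2 in RefSeq. It had 88.1, 88.7 and 90.7 CPM with CSE, against 0.883, 0.737 and 0.555 CPM in the control, and ranked 28 from the top of all tested genes (log2 fold change 6.95 ± 0.11, edgeR adjusted p = 2.4e-18). The control libraries held just 15, 14 and 11 counts of Aldh3a1. Fits with DESeq2 and limma-voom gave its log2 fold change larger SEs, of 0.24 and 0.26. With 0.5 count added to both genes, the count ratio of Aldh3a1 to Aldh3a2 was 1.26, 1.20 and 1.23 with CSE, against 0.0203, 0.0182 and 0.0137 in the control. The ratio was 71.6-fold higher with CSE, and every CSE library was above every control library (exact 2-sided permutation p = 0.1, the smallest possible, n = 3).

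Among the other genes of the list that rose, Akr1c15, an aldo-keto reductase with hydroxysteroid dehydrogenase activity listed under its older symbol Akr1cl, had 1.85, 1.91 and 2.32 CPM with CSE, against 0.177, 0.158 and 0.151 CPM in the control (log2 fold change 3.60 ± 0.39, edgeR adjusted p = 2.4e-07). The aflatoxin aldehyde reductase gene Akr7a3 had 2.18, 2.51 and 2.12 CPM with CSE, against 0.118, 0.158 and 0.302 CPM in the control (log2 fold change 3.48 ± 0.39, edgeR adjusted p = 2.9e-07). Control libraries held 3 counts each of Akr1c15, and 2, 3 and 6 counts of Akr7a3, so the folds of both rest on few control counts. With DESeq2 their SEs were 0.60 and 0.56. The alcohol and retinol dehydrogenase gene Adh7 had 7.92, 8.83 and 7.23 CPM with CSE, against 1.35, 0.579 and 0.706 CPM in the control (3.20 ± 0.23, edgeR adjusted p = 1.3e-09). Ephx3, a further epoxide hydrolase gene, stayed under 1 CPM in every library, at 0.801 ± 0.114 CPM with CSE and 0.0728 ± 0.0636 CPM in the control (SD, n = 3). It passed the test (log2 fold change 3.37 ± 0.62, edgeR adjusted p = 1.0e-04) but rests on few counts.

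The deepest fall of the list was in Dhrs3, which encodes a reductase of retinal, with 1.75, 2.56 and 1.65 CPM with CSE, against 14.0, 14.2 and 14.1 CPM in the control (log2 fold change -2.83 ± 0.15, edgeR adjusted p = 2.4e-11). Akr1c14, a hydroxysteroid dehydrogenase of the aldo-keto reductase family, had 0.853, 0.708 and 0.671 CPM with CSE, against 4.71, 3.69 and 3.48 CPM in the control (-2.39 ± 0.26, edgeR adjusted p = 1.8e-07). In both genes all CSE libraries lay below all control libraries. Akr1e2 and Aldh18a1, the enzyme gene of the first step of proline synthesis, were lower at log2 fold changes of -1.05 ± 0.27 (edgeR adjusted p = 0.0021) and -1.06 ± 0.34 (edgeR adjusted p = 0.0095). The call of Aldh18a1 ended without the second control library, which held its highest value of 2.69 CPM (-0.72, edgeR adjusted p = 0.0923).

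**Figure D4:**
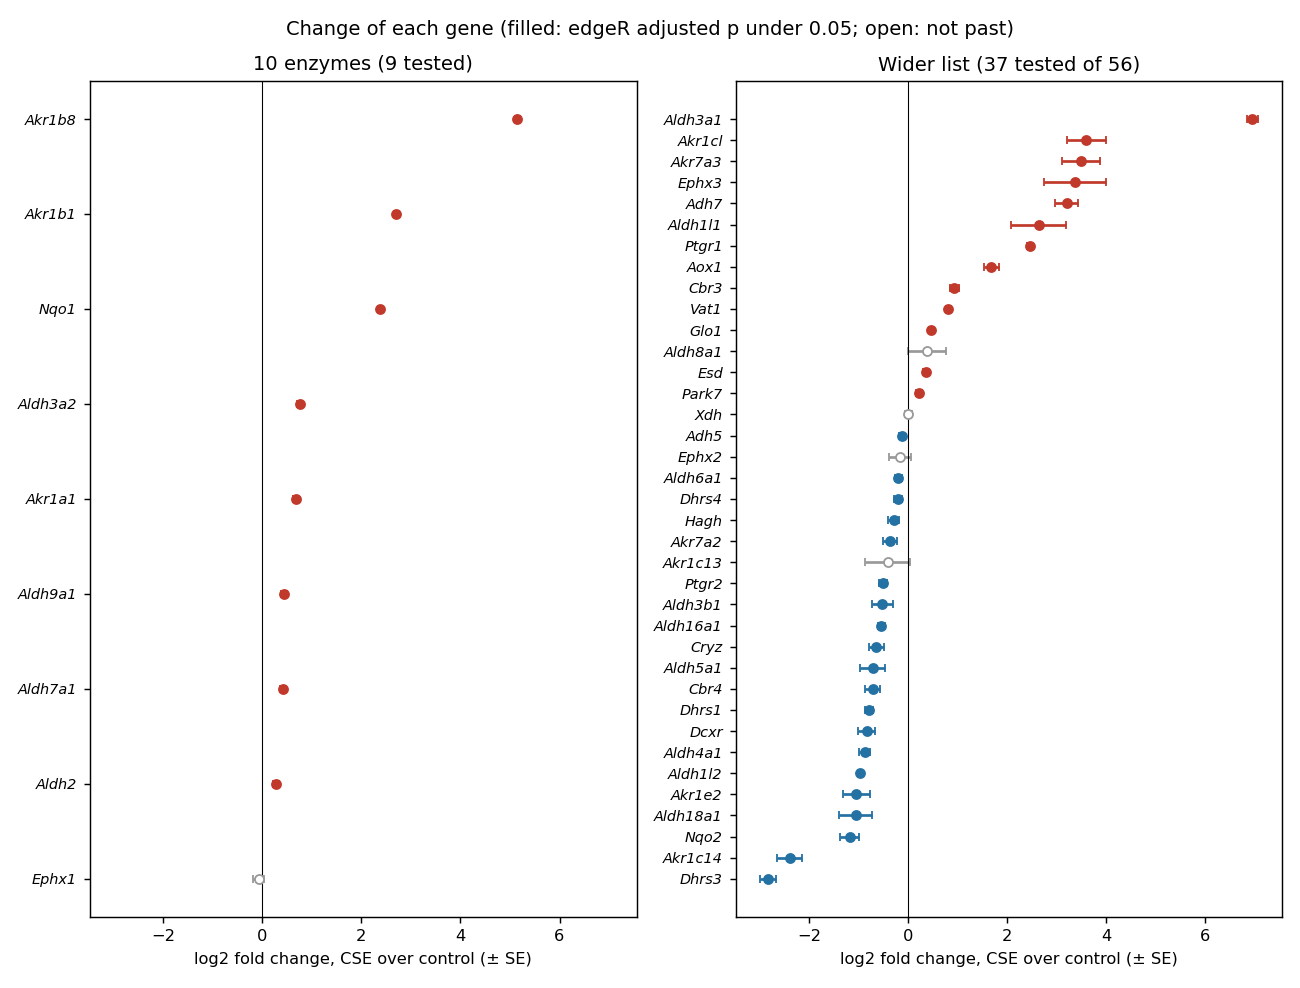
Log2 fold change of CSE over control with its SE for the 9 tested enzyme genes (left) and the 37 tested genes of the wider list (right); filled points passed the edgeR threshold and open points did not. On the left 8 genes are filled and right of 0, whereas on the right 13 genes are higher, 20 lower and 4 open. Bars of genes with few control counts, such as Aldh3a1 and Ephx3, may be too short.

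By the root mean square difference of their mean-centred log2 CPM over the 6 libraries, the genes most like Akr1b8 among 10332 compared were Slc7a11 (0.112), which encodes the cystine importer, and LOC102555400 (0.161) and LOC103694387 (0.232), which are named only by identifier. The genes most like Nqo1 were Gclc (0.0244), the catalytic subunit gene of glutamate-cysteine ligase, the HSP40 cochaperone gene Dnaja1 (0.0452) and Uap1 (0.054), which acts in UDP-N-acetylglucosamine synthesis. With 2 groups of 3 libraries this likeness rests mostly on the size of the difference between CSE and control.

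**Figure D5:**
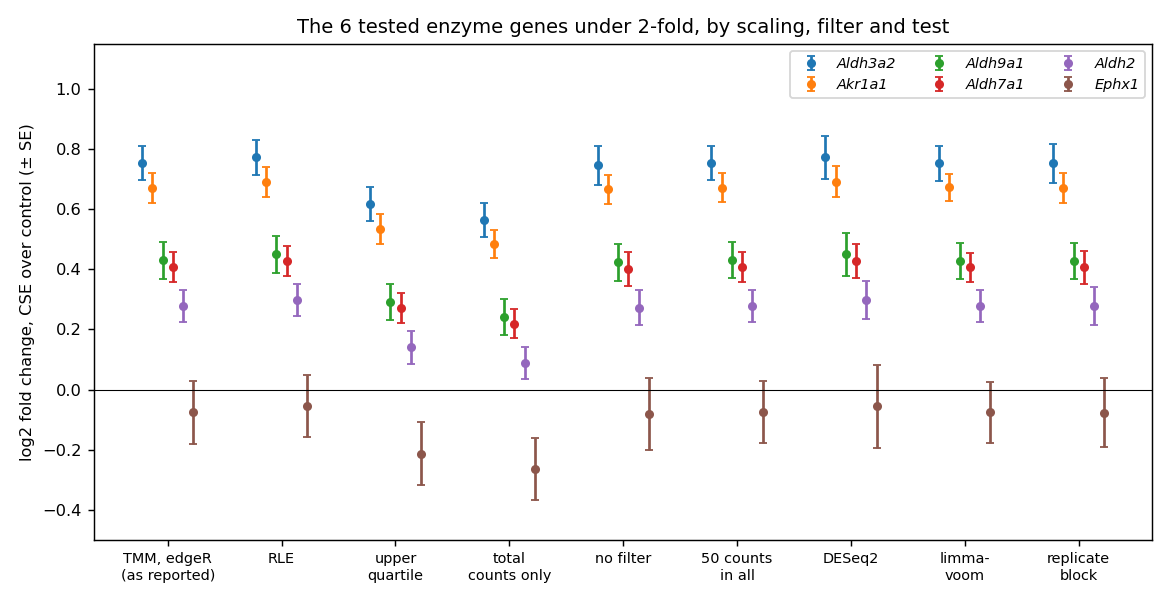
Log2 fold change of CSE over control with its SE for the 6 tested enzyme genes that changed less than 2-fold, under each scaling, filter and test. Scaling by upper quartile or total counts moves all 6 downward together, Aldh2 reaches 0.09 and Ephx1 -0.26 under total counts, and the order of the 6 genes is the same in the first and the fourth column.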

How the data were processed

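The authors deposited 1 table of raw read counts per gene symbol, whole numbers with no normalization, for 6 libraries. HISAT2 2.0.4 and the rat build Rnor_6.0 are named, with no role, per the submitters' processing notes. The sources used here give no counting tool, strand setting or annotation release. Therefore it is not known whether reads of overlapping, antisense or near-identical genes were told apart. Columns were matched to samples by title, and listed genes absent under their current symbol were looked up under an older RefSeq symbol. The members, lists and tests were chosen with earlier results of these data known.

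In R 4.3.3 with edgeR 4.0.16, filterByExpr kept 13390 genes and TMM scaled the library sizes. The quasi-likelihood F test of edgeR (2-sided) set CSE against control. Its p-values were adjusted by the Benjamini-Hochberg method across the 13390 genes, with 0.05 as the threshold. Dividing the absolute log2 fold change by the root of F gave its SE. Where control counts were few, this SE may be too small. DESeq2 gave 0.24 for Aldh3a1, against 0.11 here, and 0.92 for Ephx3, against 0.62 here. Within-library ratios used raw counts, with 0.5 added except for Akr1b8 to Akr1b1, and exact permutation tests over libraries. The 4 ratios form 1 family, in which no p could go below 0.1, so none was adjusted. Named genes are the 10 members, their nearest relatives (Akr1b10, Akr1b7, Cbr3, Nqo2, Aldh3a1 and Ephx2), the 5 called genes of the wider list with the highest and the 5 with the lowest log2 fold change, and the 3 genes most like Akr1b8 and Nqo1. Likeness used log2(CPM + 0.5) of genes with a mean of at least 5 CPM in either group. Alternatives were RLE, upper-quartile and total-count scaling, other filters, DESeq2 1.42.0, limma-voom with limma 3.58.1, a replicate block and leaving out each library. The fits were tested on simulated data in which a small part of the genes was changed, with directions drawn at random. Such data cannot test the library scaling, on which the calls of Aldh2 and Ephx1 depend. Between replicates the chi-square per degree of freedom was 2.76 to 4.73, so no pair agreed within sampling noise. Gene names, neighbours and promoter windows come from RefSeq's tables of GRCr8, an assembly other than the one in the notes, and no genome was used.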

Additional observations from a re-analysis of the deposited data

How the results depend on the processing

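The 8 enzyme genes called with CSE were 8 under every alternative by number, but under total counts alone 7 were higher and 1 lower, because Aldh2 no longer passed (0.09, edgeR adjusted p = 0.148) and Ephx1 did (-0.26, edgeR adjusted p = 0.0289). Over all 14 alternatives the adjusted p of Aldh2 reached 0.148 at most, and that of Ephx1 ranged from 0.0289 to 0.732. Total counts alone moved the median of all tested genes by -0.19 and upper-quartile scaling by -0.14, and under the first 3749 genes were called higher and 6319 lower, against 4867 and 5027 with TMM. The other 7 called members kept their direction and call in all 14 alternatives, with log2 fold changes from 4.96 to 5.19 for Akr1b8, 2.51 to 2.75 for Akr1b1, 2.20 to 2.41 for Nqo1, 0.48 to 0.70 for Akr1a1, 0.56 to 0.78 for Aldh3a2, 0.22 to 0.44 for Aldh7a1 and 0.24 to 0.49 for Aldh9a1. Of the wider list, between 29 (DESeq2) and 35 (no filter) genes were called, against 33 as reported, and 28 to 35 when 1 library was left out. Without 1 library each, the log2 ratio difference was 2.43 to 2.46 for Akr1b8 to Akr1b1, 6.00 to 6.28 for Aldh3a1 to Aldh3a2, 3.43 to 3.70 for Nqo1 to Nqo2 and 0.23 to 0.91 for Cbr3 to Cbr1. With 5 counts added, the Aldh3a1 to Aldh3a2 difference was 5.76 in place of 6.16, since the control libraries held 11 to 15 Aldh3a1 counts. Of single genes outside the 10, the sign of Ephx2 turned when 1 library was left out (range -0.32 to 0.027, the positive value without the first CSE library) and Aldh18a1 lost its call without the second control library. LOC100360601, which did not pass in any alternative, ranged from -0.050 to 0.72 when 1 library was left out, with the negative value without control library 1.

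Replicate numbers did not pair the libraries: deviations from the group means correlated at 0.00461, -0.0252 and -0.0169 between same-numbered libraries, and no CSE library correlated best with the control of its number. With the number as a replicate block, 8 enzyme genes, 32 of the wider list and 9756 genes in all were called, against 8, 33 and 9894.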

Other observations

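Genes of the wider list outside the naming rule were chosen after their values were seen. Ptgr1, which encodes an NADPH-dependent reductase of prostaglandins and of alkenals such as 4-hydroxynonenal, had 739, 743 and 701 CPM with CSE, against 122, 131 and 145 CPM in the control, and was 5.46-fold higher (log2 fold change 2.45 ± 0.06, edgeR adjusted p = 3.7e-16). Its relative Ptgr2 was lower, at -0.51 ± 0.09 (edgeR adjusted p = 4.3e-05). The aldehyde oxidase gene Aox1 had 10.2, 8.99 and 9.35 CPM with CSE, against 2.77, 2.79 and 3.33 CPM in the control (1.68 ± 0.15, edgeR adjusted p = 1.2e-08). The mitochondrial folate enzyme gene Aldh1l2 had 66.1, 68.6 and 66.4 CPM with CSE, against 131, 131 and 133 CPM in the control (-0.97 ± 0.05, edgeR adjusted p = 7.9e-12). In Ptgr1, Aox1 and Aldh1l2 no CSE library overlapped a control library.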
